A study of Mus musculus with 35 samples.

Results

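Mast cells and basophils store proteases in their granules, and the transcripts of 8 of these genes, Cpa3, Cma1, Mcpt4, Tpsab1, Tpsb2, Mcpt1, Mcpt2 and Mcpt8, were followed in mouse bone marrow progenitors expressing the leukemia fusion NUP98-HOXA9 or mutants of it. The 8 genes were chosen by name, as 8 of the 49671 rows of the gene count table. Earlier results of these data were known when they were chosen. All 8 passed the filter on low counts that left 17166 genes to test. Total RNA was sequenced from 35 libraries, 5 in each of 7 groups. In every group, lineage-negative hematopoietic stem and progenitor cells from C57Bl/6 mice had been transduced with lentivirus, sorted for the fluorescence of the vector and, for constructs, of the mEGFP tag, and grown for 1 week in a semisolid medium (Methocult M3434) to which GM-CSF was added at 10 ng/mL. The Empty group carried the vector alone and serves as control. The G-NHX9 group carried the mEGFP-tagged fusion, called NHA9 in the study, which joins a NUP98 stretch rich in phenylalanine-glycine (FG) motifs to the DNA-binding homeodomain of HOXA9. In G-NHX9-8FA, phenylalanines of the FG region are changed to alanine, and in G-NHX9-21FGAA whole FG pairs are changed to alanines. G-NHX9-midi is a shortened fusion that keeps only the C-terminal part of the FG region, and G-NHX9-midi-21FGAA is the same short form with its FG motifs mutated. G-NHX9-DDNA keeps the FG region and carries a homeodomain mutated to weaken DNA binding. The mice were labelled as 8 weeks old, except that Empty replicates 4 and 5 were labelled 9 and 10 weeks and G-NHX9 replicate 1 was labelled 11 weeks. No label ties a replicate to its own animal or says how many mice were pooled, so p-values measure the spread between libraries, which may be technical. Expression is driven by virus in cells that then grow in colony culture, and a library holds whatever cell types grew out.

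Granule proteases of mast cells are bound to the proteoglycan serglycin and released when the cell is activated through its IgE receptor. Chymases (Cma1, Mcpt1, Mcpt2, Mcpt4) and tryptases (Tpsab1, Tpsb2) are serine proteases, and Cpa3 is a metallopeptidase that trims the carboxyl ends of peptides. In the mouse, Cma1, Mcpt4 and the tryptases are classed with connective tissue mast cells and Mcpt1 and Mcpt2 with mucosal mast cells. Mcpt8 lies in the same gene cluster but is the marker protease of basophils, and Cpa3 is found in both lineages.

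All 5 serine proteases of the chymase group lie within 143823 bases of chromosome 14 (GRCm38, GENCODE M21). Cma1 is at chr14:55941451-55944675 on the minus strand, Mcpt1 at chr14:56017971-56020384 and Mcpt2 at chr14:56042041-56044642 on the plus strand, and Mcpt4 at chr14:56059629-56062313 and Mcpt8 at chr14:56082166-56085273 on the minus strand. The tryptases Tpsab1 (chr17:25343245-25345562, minus) and Tpsb2 (chr17:25366305-25369098, plus) are neighbours on chromosome 17, and Cpa3 (chr3:20215620-20242181, minus) stands alone on chromosome 3. All are protein-coding genes, and the counts are of reads in their exons. The members are related in sequence: the transcripts of Mcpt1 and Mcpt4 were identical at 85.7% of aligned bases, Mcpt1 and Mcpt2 at 82.2%, and Tpsab1 and Tpsb2 at 75.3%, whereas Mcpt8 matched the other chymase-cluster members at 62.8% to 69.1%. A stretch of 100 bases, the read length in the labels, was shared with another gene at 1 of 1009 positions of Mcpt4 and at none in the other 7 members. The microRNA genes Mir7007 and Mir6949 overlap Cpa3 and Mcpt8 on the same strand.

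RefSeq (GRCm38.p6) gave a promoter for 5 of the 8 members, and these 250 bases upstream of the transcription start are shown because GATA factors are known regulators of mast cell genes and because the members moved together. Bases that fall inside the GENCODE gene were left out, 3 for Mcpt4 and 76 for Mcpt8. Each runs 5′ to 3′ on the gene's own strand, and capitals mark GATAA or its reverse complement TTATC.
Cpa3 promoter, chr3:20242182-20242431, minus: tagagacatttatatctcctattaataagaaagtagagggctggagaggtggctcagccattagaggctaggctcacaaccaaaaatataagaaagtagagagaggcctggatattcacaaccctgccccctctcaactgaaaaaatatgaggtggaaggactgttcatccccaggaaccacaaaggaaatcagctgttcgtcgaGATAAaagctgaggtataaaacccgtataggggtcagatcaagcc
Cma1 promoter, chr14:55944676-55944925, minus: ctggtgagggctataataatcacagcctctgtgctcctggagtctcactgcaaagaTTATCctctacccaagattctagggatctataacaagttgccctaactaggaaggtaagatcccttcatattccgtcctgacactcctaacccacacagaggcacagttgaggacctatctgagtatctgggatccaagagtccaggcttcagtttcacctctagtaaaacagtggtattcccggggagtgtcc
Mcpt1 promoter, chr14:56017714-56017963, plus: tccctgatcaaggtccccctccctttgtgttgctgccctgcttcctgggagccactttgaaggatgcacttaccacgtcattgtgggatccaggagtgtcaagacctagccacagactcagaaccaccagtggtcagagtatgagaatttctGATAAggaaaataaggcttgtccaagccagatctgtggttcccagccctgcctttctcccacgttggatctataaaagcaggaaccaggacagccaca
Mcpt4 promoter, chr14:56062314-56062560, minus: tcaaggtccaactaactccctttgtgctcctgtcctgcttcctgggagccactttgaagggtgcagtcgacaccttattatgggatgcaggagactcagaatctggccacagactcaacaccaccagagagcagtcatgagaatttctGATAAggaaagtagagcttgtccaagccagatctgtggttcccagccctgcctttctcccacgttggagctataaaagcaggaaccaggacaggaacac
Mcpt8 promoter, chr14:56085274-56085447, minus: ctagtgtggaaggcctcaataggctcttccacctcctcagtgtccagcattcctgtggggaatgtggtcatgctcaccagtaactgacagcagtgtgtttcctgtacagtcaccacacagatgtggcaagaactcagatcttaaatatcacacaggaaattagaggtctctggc
Searched on both strands over the full 250 bases, GATAA was found 1 time each in Cpa3, Mcpt1, Mcpt4 and Cma1, at 45, 98, 102 and 194 bases before the start, and not in Mcpt8. The same letters occurred in 22.6% of all 32851 RefSeq promoters of that length. TATAAA, searched on the gene's strand, stood at 31, 28 and 32 bases before the start of Cpa3, Mcpt1 and Mcpt4 and occurred in 7.59% of promoters. TGTGGT or its reverse complement ACCACA was found 1 time each in Cpa3, Mcpt1 and Mcpt4, 2 times in Mcpt8 and not in Cma1. Of the 32851 promoters, 4614 held these letters, and 418 held them 2 or more times. CANNTG, where N is any base, was found 2, 3 and 1 times in Cpa3, Mcpt8 and Cma1, and not in Mcpt1 or Mcpt4. It occurred in 21753 of the promoters. The promoters of Mcpt1 and Mcpt4 were alike at 86.4% of 242 aligned bases with an identical run of 53 bases. These matches describe letters only, and nothing follows from them about binding.

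Against Empty, 7 of the 8 transcripts fell with the intact fusion, 7 with 8FA and all 8 with midi, where 15.2%, 13.2% and 20% of all genes tested were lower. With 21FGAA, midi-21FGAA and DDNA, 3, 4 and 2 of the 8 rose, where 14.7%, 9.59% and 9.85% of all genes were higher. Together they took 0.104% to 0.300% of all counts in Empty libraries, 0.0434% to 0.0642% in G-NHX9, 0.0449% to 0.0655% in G-NHX9-8FA and 0.0341% to 0.0586% in G-NHX9-midi. Their share was 0.328% to 0.467% in G-NHX9-21FGAA, 0.244% to 0.614% in G-NHX9-midi-21FGAA and 0.236% to 0.380% in G-NHX9-DDNA. Library totals ran from 31559914 to 75810659 counts, so that 3 counts stood for 0.0396 to 0.0951 CPM (counts scaled to the library total). All levels below are CPM after TMM scaling, which corrects for library composition. In bulk libraries, fewer cells of a type and less RNA per cell cannot be told apart.

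**Figure D1:**
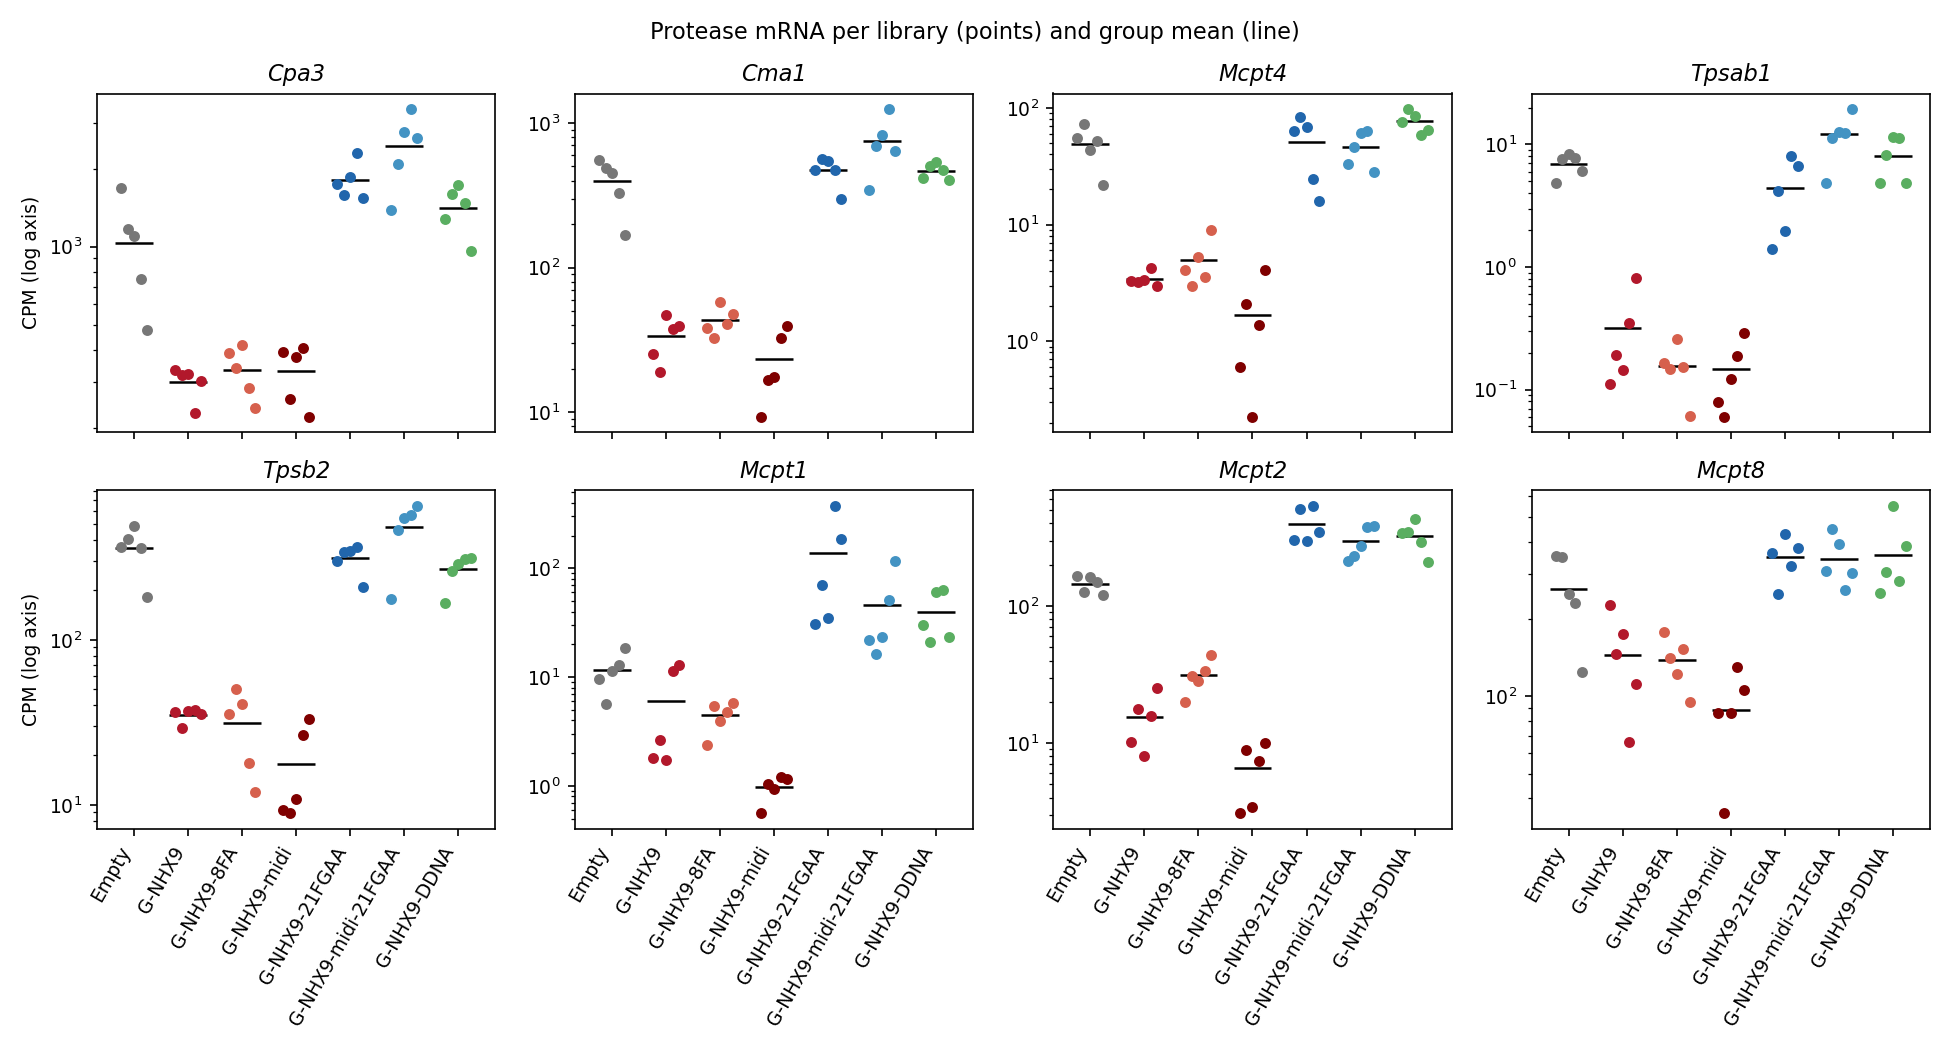
Level of each protease in every library, in CPM on a log axis, with 1 panel per gene, 5 points per group and a line at the group mean. For Cma1 the 15 libraries of G-NHX9, G-NHX9-8FA and G-NHX9-midi lie between 9.33 and 58.3 CPM and the 20 others between 169 and 1250.3 CPM.

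Cma1, the mast cell chymase of connective tissue, showed the pattern in every library. In Empty libraries it measured 559, 485, 452, 327 and 169 CPM. With G-NHX9 it measured 25.3, 18.9, 47.1, 37.4 and 39.7 CPM. The highest fusion library stood below the lowest Empty library. With G-NHX9-8FA it measured 38.3, 32.4, 58.3, 41.1 and 48.0 CPM, and with G-NHX9-midi 9.33, 16.6, 17.7, 32.7 and 39.7 CPM. Neither of these groups reached the Empty range either. With G-NHX9-21FGAA it measured 472, 566, 545, 471 and 297 CPM, with G-NHX9-midi-21FGAA 345, 692, 822, 1250.3 and 635 CPM and with G-NHX9-DDNA 418, 507, 534, 469 and 405 CPM. These libraries overlapped the Empty range or exceeded it. Against Empty, Cma1 was 11.8-fold lower with G-NHX9 (log2 fold change -3.56, SE 0.35, edgeR quasi-likelihood test, Benjamini-Hochberg adjusted p = 1.83e-09), 9.13-fold lower with 8FA (1.92e-08) and 17.2-fold lower with midi (9.65e-11). The changes with 21FGAA (0.24 ± 0.32) and DDNA (0.23 ± 0.32) did not pass.

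Mcpt4, the second connective tissue chymase, had an Empty mean of 49.1 ± 18.8 CPM (SD, n = 5) and was at 3.42 ± 0.502 CPM with G-NHX9. It was at 4.996 ± 2.41 CPM with 8FA and at 1.67 ± 1.53 CPM with midi. It fell in all 3, with log2 fold changes of -3.84, -3.31 and -4.88 (edgeR adjusted p = 1.56e-07, 1.71e-06 and 2.98e-09). With 21FGAA it spread over 15.8 to 83.2 CPM, with midi-21FGAA over 28.1 to 63.4 CPM and with DDNA over 58.9 to 98.2 CPM. None of these passed against Empty, where it ran from 21.7 to 73.5 CPM.

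The tryptases followed the chymases. Tpsb2, which cleaves after basic residues and is, per kilobase of exon too, the more abundant tryptase here, measured 366, 409.6, 486, 362 and 182 CPM in Empty and 36.4, 29.1, 36.9, 37.7 and 35.5 CPM in G-NHX9. The G-NHX9 libraries were 10.3-fold below Empty (log2 fold change -3.36, SE 0.38, edgeR adjusted p = 3.07e-08). It also fell with 8FA, to 11.9 to 50.03 CPM, and with midi, to 8.88 to 33.3 CPM. With 21FGAA, midi-21FGAA and DDNA it ran over 210.3 to 364, 176 to 651 and 167 to 311 CPM, and none of these passed against Empty. Tpsab1, its neighbour, was the rarest member, also per kilobase, at 4.87, 7.60, 8.39, 7.70 and 6.06 CPM in Empty. It was counted 4, 9, 5, 14 and 31 times in the G-NHX9 libraries, 2 to 12 times in those of 8FA and 2 to 14 times in those of midi, so that 1 library of each of the last 2 groups lay under 3 counts. Its log2 fold changes of -4.42, -5.40 and -5.50 rest on these few counts (SE 0.49 to 0.54, edgeR adjusted p = 1.95e-08, 3.02e-09 and 7.43e-10). With 21FGAA it ran over 1.40 to 8.07 CPM (-0.63, SE 0.39, edgeR adjusted p = 0.243), with midi-21FGAA over 4.89 to 19.5 CPM (0.82, adjusted p = 0.146) and with DDNA over 4.84 to 11.5 CPM (0.23, adjusted p = 0.743). None of these passed, and all overlapped Empty.

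Cpa3, the carboxypeptidase, was the most abundant member in every group, also per kilobase of exon. It measured 1689.8, 1171, 1099, 747 and 476 CPM in Empty and 335, 319.5, 321, 227 and 303 CPM in G-NHX9. All G-NHX9 libraries lay below Empty, but the log2 fold change of -1.78 (SE 0.25) stood beside -3.56 for Cma1. It also fell with 8FA (-1.64) and midi (-1.65, edgeR adjusted p = 6.62e-06 and 2.43e-06). With 21FGAA it measured 1740.1, 1581, 1857, 2290.5 and 1534 CPM and with midi-21FGAA 1384, 2080.4, 2763, 3402 and 2619 CPM. Both groups rose, by 0.80 (adjusted p = 0.0144) and 1.24 (adjusted p = 0.00123, both edgeR), although their lowest libraries lay within the Empty range. Among libraries labelled 8 weeks alone, the rise with 21FGAA was 0.46 (edgeR adjusted p = 0.187) and did not pass. In Empty, 6 members (Cpa3, Cma1, Mcpt4, Mcpt8, Tpsb2 and Mcpt2) were each lowest in replicate 5, labelled 10 weeks.

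The mucosal type proteases, Mcpt1 and Mcpt2, were the members that rose in all 3 of 21FGAA, midi-21FGAA and DDNA. Mcpt2 measured 166, 127, 163, 151 and 119.8 CPM in Empty. With G-NHX9 it measured 10.2, 17.6, 8.09, 15.8 and 25.4 CPM and with midi 3.07, 8.94, 3.44, 7.44 and 10.0 CPM. The G-NHX9 and midi libraries all lay below the Empty libraries, and midi had 3 libraries below every G-NHX9 library. With 21FGAA it measured 303, 506, 298, 541 and 344 CPM, with midi-21FGAA 215, 232, 273, 377 and 386 CPM and with DDNA 343, 344, 429.6, 292 and 209 CPM. Every one of these 15 libraries exceeded the highest Empty library. The edgeR log2 fold changes were 1.46 (SE 0.29, adjusted p = 0.00037), 1.03 (SE 0.29, adjusted p = 0.0125) and 1.16 (SE 0.29, adjusted p = 0.00576). Among libraries labelled 8 weeks alone, the rise with midi-21FGAA was 0.97 (edgeR adjusted p = 0.0739).

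Mcpt1 had the largest coefficient of variation of the 8 in G-NHX9, 21FGAA, midi-21FGAA and DDNA, from 51.7% to 105%. In Empty it measured 9.57, 5.67, 11.3, 12.8 and 18.4 CPM. With G-NHX9 it split, at 1.81, 2.64, 1.71, 11.3 and 12.8 CPM, so that replicates 1, 2 and 3 lay below Empty and replicates 4 and 5 within it. The difference did not pass (-0.93, SE 0.61, edgeR adjusted p = 0.265). A fit blocked on replicate number gave -1.25 (edgeR adjusted p = 0.0281), which passed. With 8FA it ran over 2.35 to 5.75 CPM (-1.37, SE 0.62, adjusted p = 0.104), with all but 1 library below Empty. With midi Mcpt1 was lowest, at 0.558, 1.05, 0.941, 1.204 and 1.15 CPM, a log2 fold change of -3.56 (adjusted p = 0.000128). With 21FGAA it measured 30.5, 69.5, 34.97, 378 and 185 CPM, with midi-21FGAA 21.8, 16.3, 23.5, 50.7 and 117 CPM and with DDNA 30.3, 21.2, 60.9, 62.9 and 23.4 CPM. Replicates 4 and 5 of 21FGAA stood far above the rest. Libraries of these replicate numbers were also the highest in Empty, G-NHX9, midi and midi-21FGAA, but not in 8FA or DDNA. The rises were 3.60 (SE 0.65, edgeR adjusted p = 0.000137), 2.00 (SE 0.61, adjusted p = 0.0225) and 1.79 (SE 0.61, adjusted p = 0.0392). The rise with midi-21FGAA was lost without Empty replicate 2 or midi-21FGAA replicate 5 (1.31, edgeR adjusted p = 0.145, without the latter), and that with DDNA was lost in 6 of 10 fits that left 1 library out (without any of Empty replicates 1 to 4, or DDNA replicate 3 or 4), with values of 1.57 to 2.02.

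Mcpt8, the basophil protease, had the smallest fitted falls of the 8 in G-NHX9, 8FA and midi. In Empty it measured 351, 347, 251, 230.2 and 124 CPM and with G-NHX9 227, 146, 174, 66.4 and 112 CPM. The ranges overlapped, with 2 G-NHX9 libraries below every Empty library. It measured 178, 141, 122, 153 and 94.9 CPM with 8FA and 86.3, 34.99, 85.7, 129.9 and 106 CPM with midi. Its edgeR log2 fold changes were -0.84 (SE 0.30, adjusted p = 0.0268), -0.92 (SE 0.30, adjusted p = 0.0198) and -1.56 (SE 0.30, adjusted p = 8.49e-05). The call with G-NHX9 was lost without TMM scaling, in a fit to those groups alone, and without Empty replicate 1 or 2 or G-NHX9 replicate 4 or 5 (adjusted p up to 0.0901). The call with 8FA was lost without Empty replicate 1 or 2 or 8FA replicate 5 (up to 0.0552). With 21FGAA it ran over 250.1 to 429 CPM, with midi-21FGAA over 259 to 447 CPM and with DDNA over 253 to 552 CPM, and none of these passed against Empty.

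With G-NHX9 and with 8FA, Mcpt1 was the member that did not pass. The median log2 fold change of the members was -3.30, -2.699 and -4.22, beside 0.0063, 0.03 and 0.019 for all genes. Every library lay below every Empty library for 6 members with G-NHX9, 6 with 8FA and 7 with midi, where 9.51%, 8.75% and 13.9% of genes did so. The 3 that rose with 21FGAA were Cpa3, Mcpt1 and Mcpt2, and the 4 with midi-21FGAA were these and Cma1. Cma1 there was 0.91 (SE 0.32, edgeR adjusted p = 0.0466), 0.82 (edgeR adjusted p = 0.0543) in a fit blocked on replicate number, and did not pass in 8 of 10 fits without 1 library (all but Empty replicate 1 and midi-21FGAA replicate 1 left out). The 2 with DDNA were Mcpt1 and Mcpt2. The 6 comparisons share the Empty libraries.

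**Figure D2:**
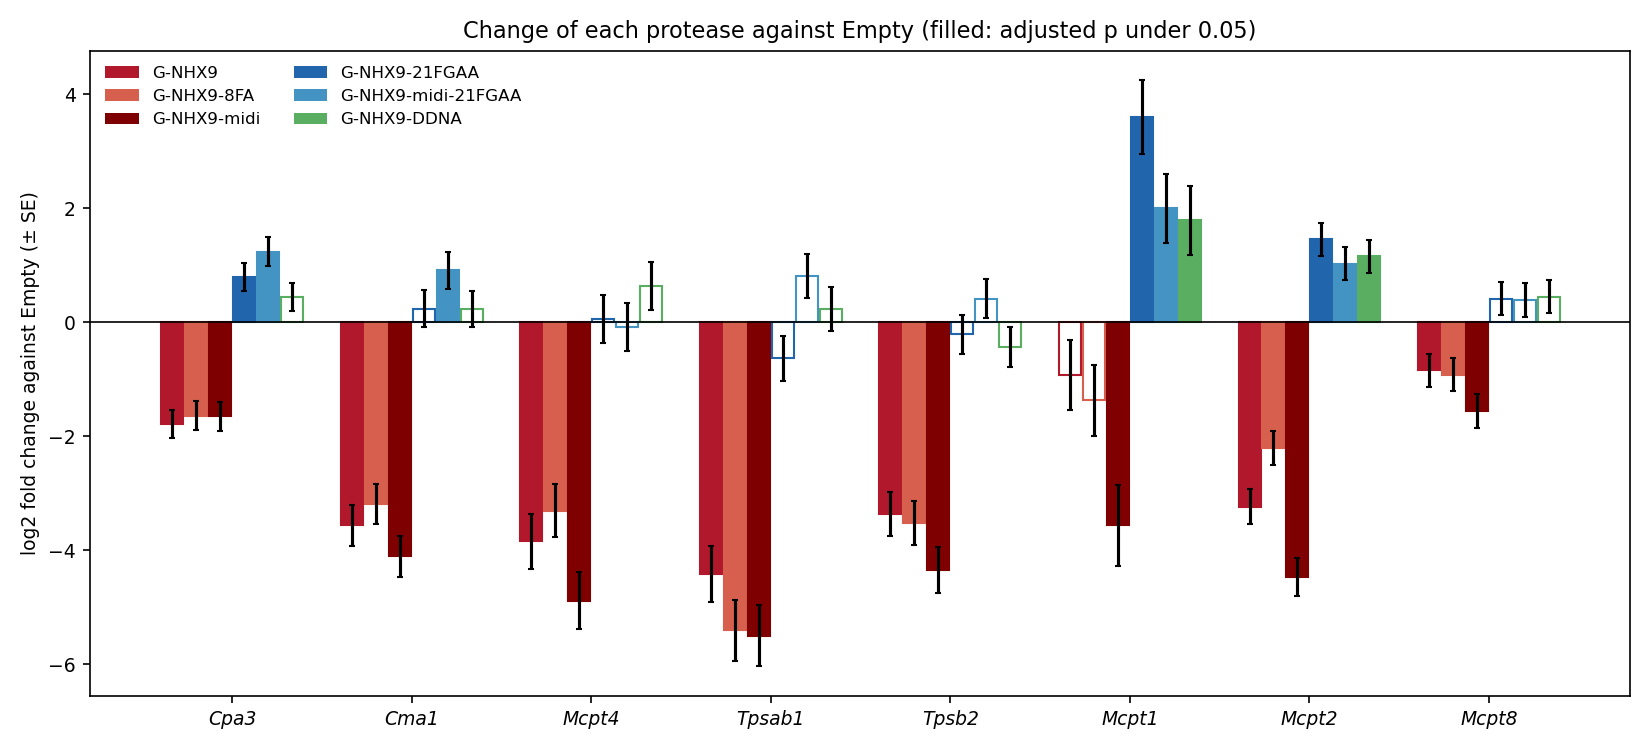
Log2 fold change of each protease against Empty for the 6 constructs, from the edgeR fit, as bars with error bars of 1 SE, filled where the adjusted p was under 0.05. The values for G-NHX9, G-NHX9-8FA and G-NHX9-midi all lie below 0, from -5.50 for Tpsab1 with midi to -0.84 for Mcpt8 with G-NHX9, and those of the other 3 constructs run from -0.63 for Tpsab1 to 3.60 for Mcpt1, both with 21FGAA.

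The constructs were also compared with their own parent forms. All 8 proteases were higher with 21FGAA than with G-NHX9 (8.91% of genes higher), from 1.26 for Mcpt8 to 4.69 for Mcpt2 on the log2 scale. All 8 were higher with DDNA than with G-NHX9 (10.7% of genes higher), from 1.29 for Mcpt8 to 4.65 for Tpsab1. All 8 were higher with midi-21FGAA than with midi (21% of genes higher), from 1.95 for Mcpt8 to 6.32 for Tpsab1. In each of these comparisons the libraries did not overlap for any of the 8, where 6.38%, 7.03% and 14.2% of genes were higher in that way. All 8 were also higher with 21FGAA than with 8FA (15.3% of genes higher), from 1.33 to 4.97.

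The 8FA and midi forms were also set against G-NHX9 and against each other. Mcpt2 was the 1 member that passed between 8FA and G-NHX9, at 31.5 ± 8.75 against 15.4 ± 6.80 CPM (log2 fold change 1.03, SE 0.29, edgeR adjusted p = 0.0153, 6.43% of genes higher), and among libraries labelled 8 weeks alone the difference was 0.90 (edgeR adjusted p = 0.0516). With midi, Mcpt1 (-2.63, adjusted p = 0.00701), Mcpt2 (-1.24, adjusted p = 0.00288) and Tpsb2 (-0.98, adjusted p = 0.0488) were lower than with G-NHX9 (edgeR, 11.2% of genes lower). The Tpsb2 call was lost in 7 of 10 fits that left 1 library out (any but G-NHX9 replicate 2 or midi replicates 4 and 5). Against 8FA, midi had lower Mcpt2 alone (-2.26, SE 0.30, adjusted p = 1.24e-05, 2.74% of genes lower). Among the 3 groups with high levels, 1 member passed in 1 pair. Tpsab1 was higher with midi-21FGAA than with 21FGAA (1.45, SE 0.39, edgeR adjusted p = 0.035, 1.03% of genes higher). None passed between DDNA and 21FGAA (1.04% of genes changed) or DDNA and midi-21FGAA (0.915%) by edgeR, the only tool run on these pairs, where 2 and 3 members had an unadjusted p under 0.05.

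Ordered by mean level, the lowest 3 groups were G-NHX9, 8FA and midi for every member. For 7 of the 8 members, 1 of the 6 steps between neighbouring groups passed the edgeR test. It was the step between the lowest 3 groups and the rest, except in Mcpt1, where it was the step from DDNA to Empty. For Mcpt4 this step lay between midi-21FGAA and 8FA, where 17.9% of genes were higher. For Mcpt2, 4 steps passed, from midi-21FGAA (296 ± 80.4 CPM) to Empty (145 ± 20.9 CPM), to 8FA (31.5 ± 8.75 CPM), to G-NHX9 (15.4 ± 6.80 CPM) and to midi (6.58 ± 3.17 CPM).

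To compare mast cell with basophil proteases inside each library, every member was taken as a ratio to Mcpt8. In Empty the log2 ratio of Cma1 to Mcpt8 was 0.59 ± 0.17 (SD, n = 5) and with G-NHX9 -2.05 ± 0.98. The difference of -2.64 exceeded the spread, with no overlap between the libraries (two-sided exact permutation test, p = 0.00794, the smallest that 5 against 5 libraries allow, adjusted p = 0.0256 over 42 tests). The ratio also differed for Mcpt4 (-2.701), Mcpt2 (-2.42), Tpsb2 (-2.41) and Tpsab1 (-2.35) at the same p. For Cpa3 the difference was -0.80 (adjusted p = 0.0556, exact permutation test) and for Mcpt1 -0.37 (0.778), and neither passed. So 5 of 7 ratios differed with G-NHX9. The same 5 differed with 8FA and with midi (adjusted p = 0.0256 or 0.0417, exact permutation tests), with Mcpt4 at -2.31 and -3.12 and Cma1 at -2.24 and -2.55. The size for Tpsab1 (-2.35 with G-NHX9, -2.63 with 8FA and -1.93 with midi) is capped by the 0.5 CPM added, since its mean was 0.320, 0.157 and 0.148 CPM there. With 0.05 CPM added, its differences were -3.63, -4.27 and -3.65. The ratio of Cpa3 to Mcpt8 with midi was 1.97 ± 0.67, against 1.96 ± 0.24 in Empty. No ratio passed with 21FGAA or midi-21FGAA in these exact permutation tests, the only test run on ratios, where 3 and 1 had an unadjusted p under 0.05. With DDNA 1 differed, Tpsb2, by -0.88 (adjusted p = 0.0417, exact permutation test). In all, 16 of 42 ratios passed, and 13 did not overlap. Without Empty replicate 3, or without Empty replicate 4, none passed (smallest adjusted p 0.0513, smallest p such an exact permutation design allows 0.0159), while 13 still did not overlap.

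**Figure D3:**
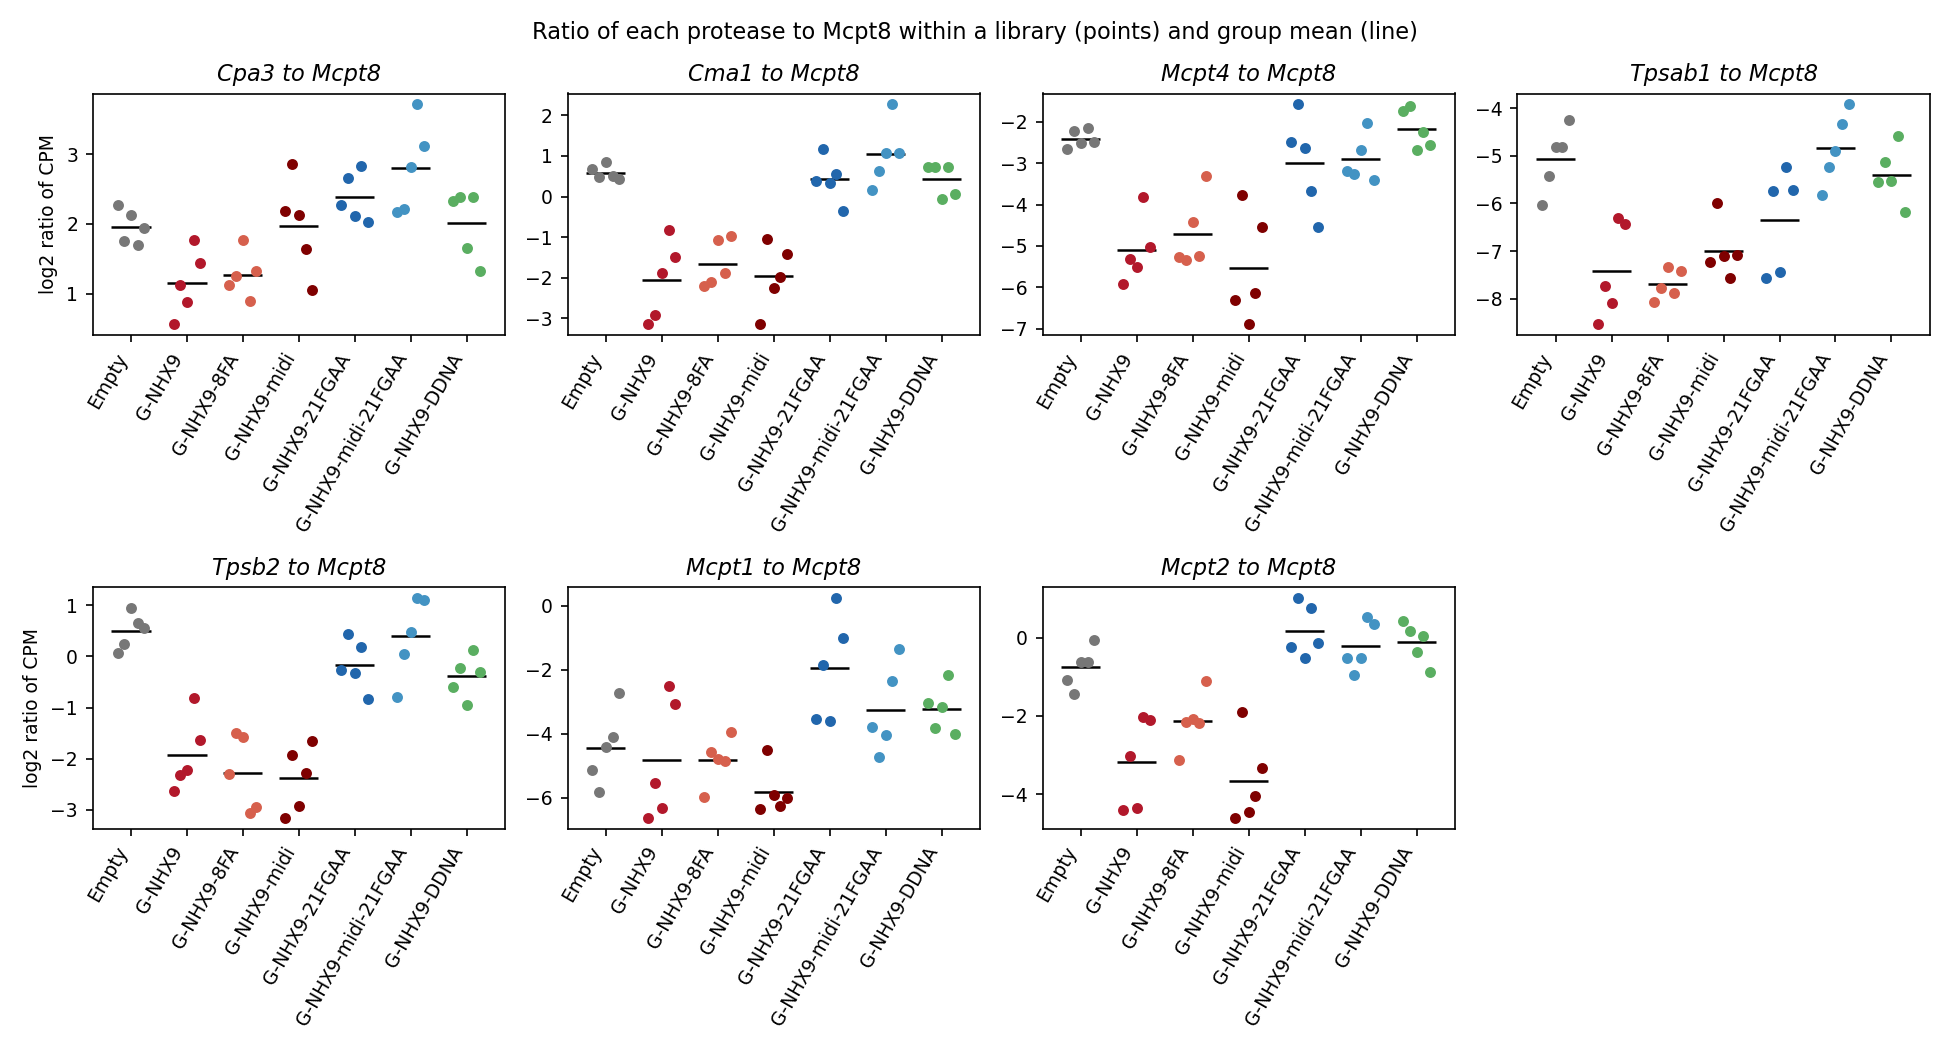
Log2 ratio of each protease to Mcpt8 in every library, with 0.5 CPM added to both, 5 points per group and a line at the group mean. For Cma1, Mcpt4 and Tpsb2 the points of G-NHX9, G-NHX9-8FA and G-NHX9-midi lie below all Empty points, and those of Cpa3 overlap Empty in all 6 constructs.

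Ratios between the mucosal type and the connective tissue type were added after the data were seen, with 48 exact permutation tests of Mcpt1 or Mcpt2 against Mcpt4, Cma1, Tpsab1 or Tpsb2. None passed after adjustment (smallest adjusted p 0.0564, 29 with an unadjusted p under 0.05, exact permutation tests, no other test run on these). With 0.05 instead of 0.5 CPM added, 9 passed. The 48 ratios come from 6 genes and share the same 5 Empty libraries, so they are not independent.

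Expressed per kilobase of exon, so that genes can be compared, the make-up of the pool of 8 transcripts differed between groups. Cpa3 was the largest share in each, from 38.5 ± 4.51% (SD, n = 5) in Empty to 63.0 ± 11.3% with midi. Cma1 made up 20.7 ± 1.63% in Empty, 7.64 ± 3.12% with G-NHX9, 8.93 ± 2.46% with 8FA and 6.23 ± 3.30% with midi. The share of Mcpt8 went the other way, at 15.0 ± 1.54% in Empty, 33.3 ± 8.94% with G-NHX9, 30.2 ± 5.07% with 8FA and 24.8 ± 6.75% with midi. Its mean level did not rise but was lower there, at 145, 138 and 88.7 CPM per kilobase against 261 in Empty. In these 3 groups Mcpt8 was the second transcript of the pool and Cma1 the third, whereas Cma1 was second in the other 4 groups. Mcpt2 took 8.67 ± 2.91% in Empty and 13.7 ± 3.07% with 21FGAA, and Mcpt1 0.846 ± 0.740% and 4.78 ± 4.41%. Tpsab1 was last everywhere. These shares describe the pool and were not tested.

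**Figure D4:**
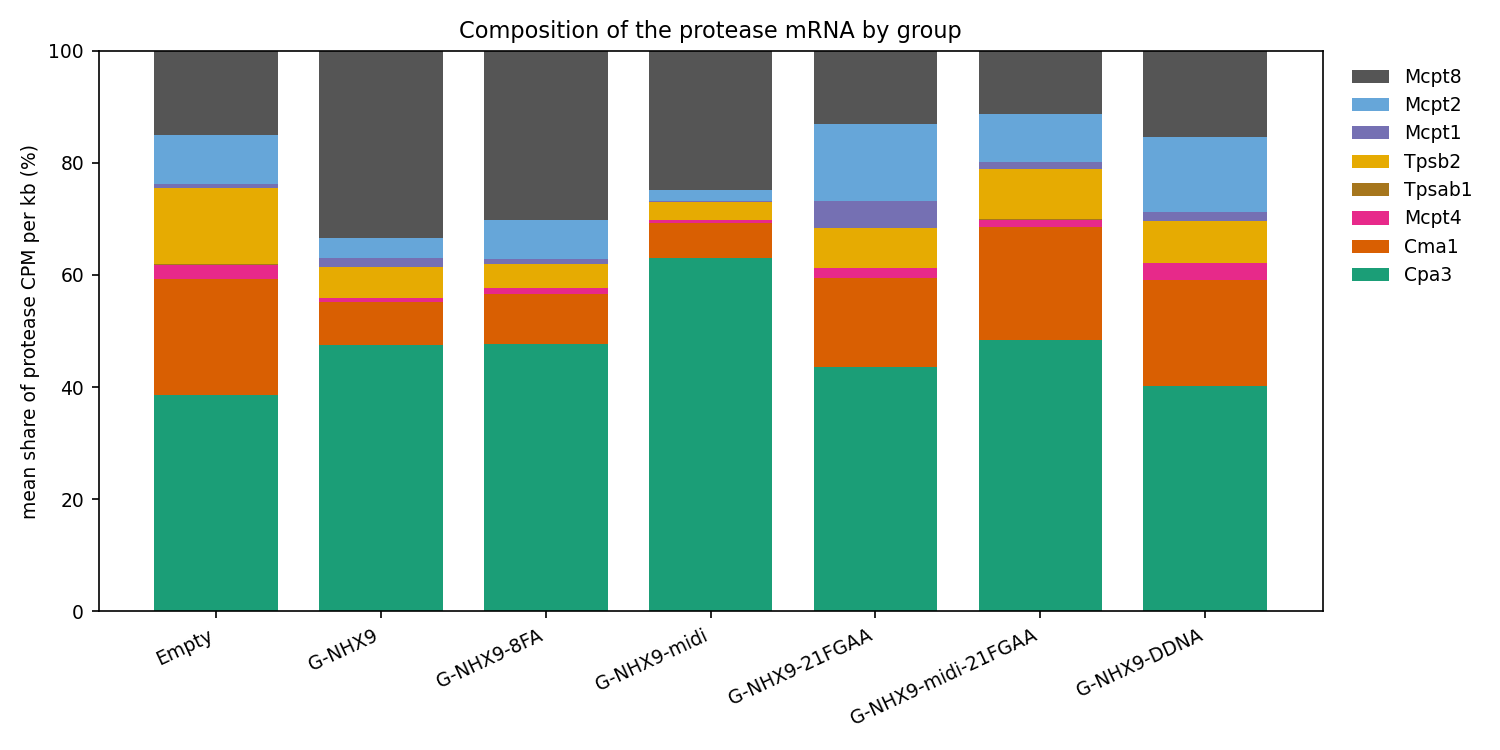
Mean share of each member in the summed CPM per kilobase of the 8 transcripts, as stacked bars from 0 to 100% for the 7 groups (n = 5 libraries each). Mcpt8 is 15.0% of the pool in Empty and 33.3% in G-NHX9, and Cma1 is 20.7% and 7.64%.

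Within groups, after each group's mean was taken off, some pairs of members varied together and others did not. Over 35 libraries Pearson's r of log2 CPM was 0.72 between Mcpt1 and Tpsab1 and 0.64 between Cma1 and Tpsb2. It was 0.61 between Mcpt4 and Cma1 and between Mcpt1 and Mcpt2. For Cpa3 and Mcpt2 it was 0.0083, and for Mcpt1 and Cma1 0.053. It was -0.41 between Mcpt1 and Mcpt8, -0.29 between Mcpt2 and Mcpt8 and -0.26 between Mcpt1 and Mcpt4. Members of one library share its depth and cells, and these r describe the libraries only. Across all 35 libraries, group differences included, Cma1 and Tpsb2 had r = 0.96. The genes outside the 8 whose pattern was most like that of Cma1 were Tph1 (r = 0.975), Fcer1a, Mab21l1, Rprm and Tpsg1. For Tpsb2 they were Tpsg1 (0.972), Tph1, Slc30a2, Rprm and Mab21l1, for Cpa3 Maob (0.979), Hs6st2, Nrip3, Gna14 and Car8, and for Mcpt4 Ttc39b (0.947), Slco2b1, Rarres1, Tph1 and Ear2. For Mcpt2 they were Tph1 (0.959), Arhgap20, C330018A13Rik, Ttc39b and Mab21l1, for Mcpt1 Otop1 (0.926), Dcbld2, Fam174b, Mrgpra4 and Ndst3, and for Tpsab1 Galnt10 (0.968), Grm6, Ddc, Bmp7 and Atp8b5. For Mcpt8 they were Adora3 (0.914), Col18a1, Dlg2, Itga2 and Pros1.

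The other genes of the chymase and tryptase clusters did not all follow. Of 14 listed, 7 had enough counts to test; Mcpt9, most of the cluster's granzymes and Prss29 did not. With G-NHX9 3 were lower and 2 higher, with 8FA and with midi 4 lower and 2 higher. Of all genes tested 15.2%, 13.2% and 20% were lower with G-NHX9, 8FA and midi. Cma2, a chymase gene inside the cluster, was at 0.359 ± 0.0699 CPM in Empty and passed as lower in these 3 groups, at means of 0.0159, 0.061 and 0.0271 CPM, which is 3 counts or fewer in most libraries. It never exceeded 52 counts, and 58 of 1059 stretches of 50 bases of Mcpt4 are shared with it. Tpsg1, a membrane-anchored tryptase, changed by -2.35, -2.83 and -3.47. Ctsg, the cathepsin G of neutrophil and monocyte precursors, and the granzyme Gzmc went the opposite way. Ctsg rose by 2.39, 2.02 and 2.29. Gzmc averaged 0.0434 CPM in Empty, under the level of 3 counts, so no fold is given. It passed as higher at means of 1.39, 0.561 and 0.712 CPM in these groups, with overlap of the libraries for midi, and at 0.879 CPM with 21FGAA. Of all genes tested 16.9%, 13.4% and 20.5% were higher in these 3 groups. Neither lies between Cma1 and Mcpt8. Ctsg also rose with 21FGAA (1.63) and DDNA (1.61) but was at 0.14 with midi-21FGAA (edgeR adjusted p = 0.792). With 21FGAA, midi-21FGAA and DDNA 4, 3 and 1 genes of the list were higher, beside 14.7%, 9.59% and 9.85% of all genes. The 1 gene with DDNA is near that share.

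Of 8 partner genes, which build the granule or its other contents, 3 were lower and 1 higher with G-NHX9, 4 and 1 with 8FA, and 5 and 1 with midi. The 1 higher gene is no larger a share than that of all genes (16.9%, 13.4% and 20.5% higher), and the lower ones stand beside 15.2%, 13.2% and 20% of all genes. Tph1, which starts serotonin synthesis, fell (log2 fold changes -2.64, -2.86 and -4.12), and Rab27b, a GTPase of granule docking (-0.88, -1.46 and -1.95). Ctsc, which activates granule serine proteases by cutting off their propeptide, fell (log2 fold changes -0.89, -0.69 and -1.05). Srgn, the serglycin core protein, went up with 8FA (0.66) and midi (0.83), while it was 0.28 with G-NHX9 (adjusted p = 0.113). Hpgds, the prostaglandin D synthase, was the gene that rose with G-NHX9 (0.72). Hdc, the histidine decarboxylase that makes histamine, had values from -0.49 to 0.57 over the 6 constructs, with edgeR adjusted p from 0.162 to 0.789. With 21FGAA 4 were higher and 1 lower, with midi-21FGAA 4 higher, and with DDNA 1 higher. Of all genes 14.7%, 9.59% and 9.85% were higher in these groups, and 12.5% were lower with 21FGAA. The 1 lower gene with 21FGAA and the 1 higher gene with DDNA are near these shares.

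Receptors and regulators of mast cells moved with the proteases in part. Mrgprb1 and Mrgprb2, receptors of connective tissue mast cells, had at most 28 counts in a library and were not tested. Of the 8 others, 5 were lower with G-NHX9, 4 with 8FA and 6 with midi, where 15.2%, 13.2% and 20% of all genes were lower. Fcer1a, the IgE-binding chain of the high-affinity receptor, fell (log2 fold changes -2.67, -2.38 and -2.80), and Il1rl1, the IL-33 receptor (-1.54, -1.55 and -1.61). Gata1, an erythroid, mast cell and eosinophil transcription factor, fell with 8FA (-1.73) and midi (-2.25) but was -0.49 with G-NHX9 (edgeR adjusted p = 0.0845). Ms4a2, the receptor's beta chain, was at -0.56, -0.0043 and -0.22 there (edgeR adjusted p = 0.106, 0.993 and 0.542). With 21FGAA 6 were higher and 1 lower, with midi-21FGAA 5 and 1, and with DDNA 2 and 1, where 12.5%, 7.32% and 7.35% of all genes were lower. Of all genes 14.7%, 9.59% and 9.85% were higher there. The lower gene was Fcer1g each time, the signalling chain shared with other myeloid receptors, at -0.65, -0.42 and -0.57. The median of the list was -0.60, -0.67 and -0.81 in the first 3 groups, against -3.30, -2.699 and -4.22 for the proteases.

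**Figure D5:**
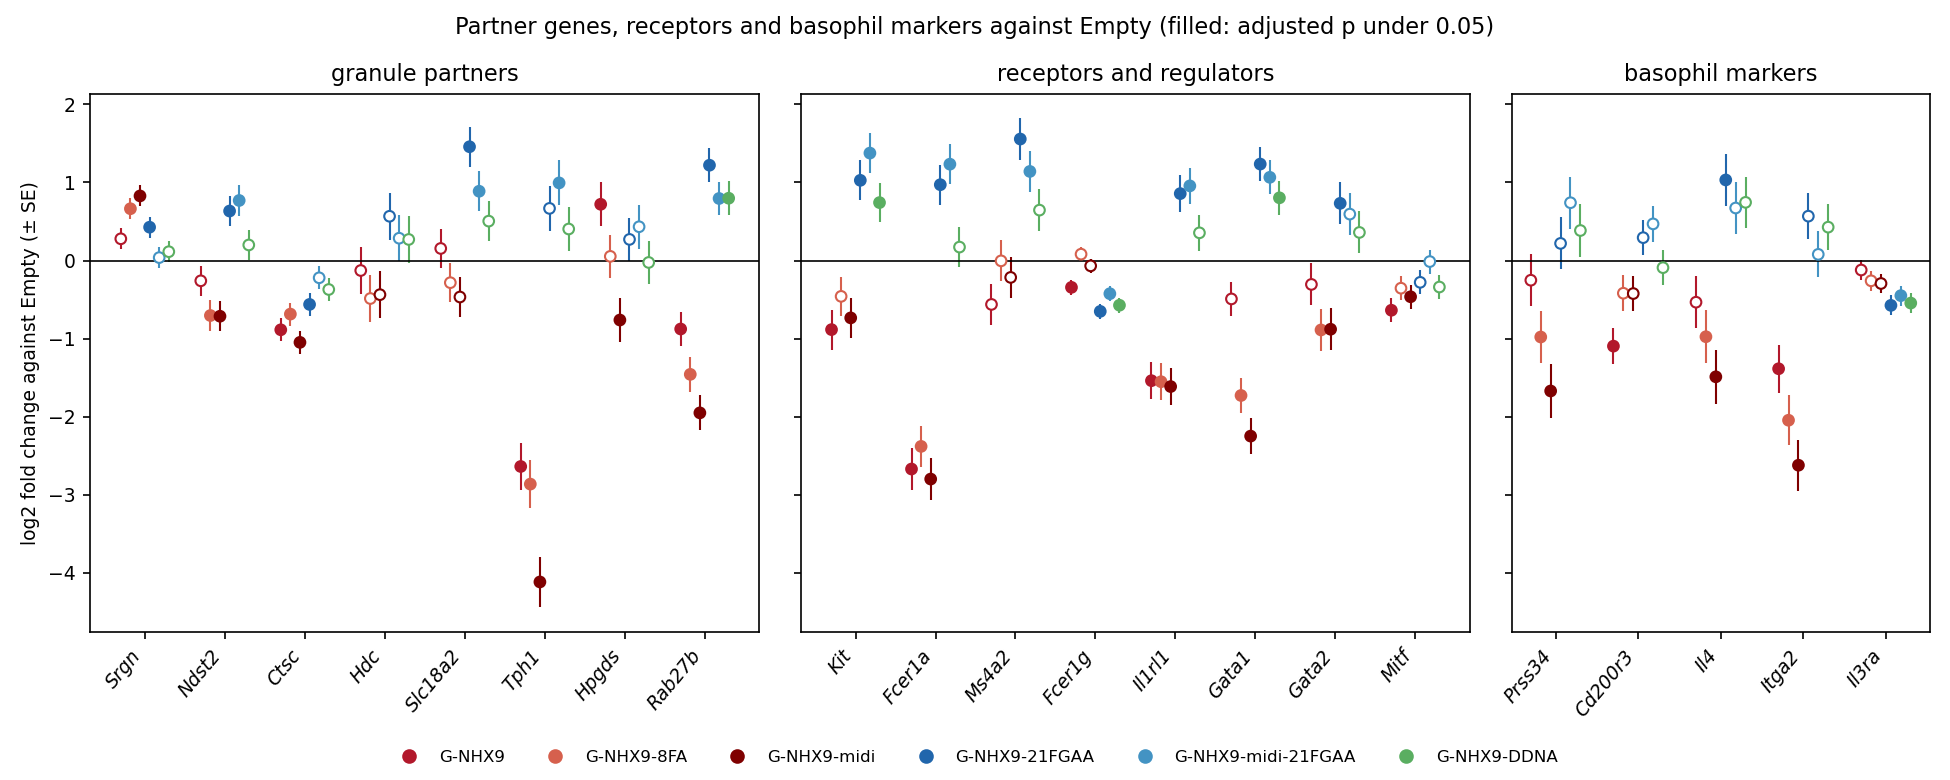
Log2 fold change against Empty of the granule partner genes, mast cell receptors and regulators and basophil markers, with 1 colour per construct and filled points where the edgeR adjusted p was under 0.05. Tph1 and Fcer1a follow the proteases, from -4.12 and -2.80 with midi to 0.99 and 1.23 with midi-21FGAA, while Hdc stays between -0.49 and 0.57.

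Other basophil genes were measured beside Mcpt8. Of 5, 2 were lower with G-NHX9, 3 with 8FA and 3 with midi, where 15.2%, 13.2% and 20% of all genes were lower. Their median log2 fold change was -0.53, -0.98 and -1.49 in these groups. That of the mast cell receptors and regulators was -0.60, -0.67 and -0.81, so with 8FA and midi the basophil median was the lower. The lists were not tested against each other. Itga2, an integrin chain found on basophils, fell (log2 fold changes -1.39, -2.04 and -2.62). Prss34, the second basophil granule protease of the mouse, was -0.25 with G-NHX9 (edgeR adjusted p = 0.614) and fell with 8FA (-0.98) and midi (-1.67). Cd200r3 fell with G-NHX9 (-1.10) and Il4 with 8FA (-0.98) and midi (-1.49). In the 3 other constructs Il3ra alone was lower (-0.57, -0.45 and -0.54), and Il4 was higher with 21FGAA (1.03). Of all genes 12.5%, 7.32% and 7.35% were lower in these constructs, and 14.7% were higher with 21FGAA. The summed level of the 5 was 118.9 to 189.7 CPM in Empty, 77.6 to 148 in G-NHX9, 59.6 to 131 in 8FA, 45.7 to 118 in midi, 144 to 273 in 21FGAA, 159 to 339 in midi-21FGAA and 138 to 256 in DDNA.

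Markers of some other lineages moved with the proteases and those of others did not, and their part in these results was not tested. With G-NHX9, 8FA and midi, 15.2%, 13.2% and 20% of all genes tested were lower and 16.9%, 13.4% and 20.5% higher. A count of 1 in a list of 8 or 9 genes is no larger than these shares. With 21FGAA, midi-21FGAA and DDNA, 14.7%, 9.59% and 9.85% of all genes were higher. Eosinophil markers were lower for 5 of 9 genes with G-NHX9, 8 with 8FA and 8 with midi, where 1 was higher. Their summed level was 1388 to 1928 CPM in Empty, 285 to 1033 in G-NHX9, 77.1 to 298 in 8FA and 44.1 to 128 in midi. It was 1568 to 2502 CPM in 21FGAA, 831 to 2370 in midi-21FGAA and 1610 to 2693 in DDNA. Megakaryocyte markers were lower for 3, 7 and 7 of 7 genes, from 794 to 1414 CPM in Empty down to 144 to 260.4 in midi. Erythroid markers were lower for 10 and 9 of 11 genes with 8FA and midi, and higher for 1 with midi. They were higher for 2 with G-NHX9 and for 7, 8 and 3 with 21FGAA, midi-21FGAA and DDNA. Early granule genes (Mpo, Elane, Prtn3, Ctsg) were higher for 3, 3 and 2 of 4 with G-NHX9, 8FA and midi, for all 4 with 21FGAA and with DDNA, while their median log2 fold change was -0.21 with midi-21FGAA. Late neutrophil markers were higher for 6 of 8 with 8FA, higher for 3 and lower for 2 with midi, and 1 each way with G-NHX9. Macrophage markers were higher for 3 of 9 and lower for 2 with G-NHX9, 1 each way with 8FA, and lower for 5 and higher for 1 with midi. T and NK cell markers summed to at most 2.03 CPM in any library. Of the markers of the plated stem and progenitor cells, Kit, Cd34 and Ly6a had at least 737 counts in every library. Flt3 had 3 counts in its lowest library. Of these 4, 3 were higher and 1 lower with G-NHX9 and with midi, and 2 higher with 8FA. With 21FGAA and midi-21FGAA 2 were higher, and with DDNA 2 higher and 1 lower, where 7.35% of all genes were lower. Flt3 rose by 5.61, 3.05 and 3.56 with G-NHX9, 8FA and midi, from an Empty mean of 0.187 CPM. Kit is also counted among the mast cell receptors and regulators above. It fell with G-NHX9 (-0.88) and midi (-0.73) and rose with 21FGAA (1.03), midi-21FGAA (1.38) and DDNA (0.74).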

How the data were processed

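Total RNA of 35 libraries, 5 per group, was sequenced from a stranded kit. The authors deposited 1 table of raw counts per gene, and their notes name STAR 2.7.0d, HTSeq 0.11.2, DESeq2 and mm10. The annotation and the strand setting of the counting are not given in the sources used here. The deposited counts were used as they stood. Genes were filtered with filterByExpr, scaled by TMM and fitted in 1 model over all 35 libraries with edgeR 4.0.16 (R 4.3.3, limma 3.58.1) by quasi-likelihood, with Benjamini-Hochberg adjustment over all 17166 genes tested within a comparison and a threshold of 0.05. The SE is the log2 fold change divided by the root of F. Ratios to Mcpt8 used log2 of CPM with 0.5 added and two-sided exact permutation tests (scipy 1.17.1), adjusted over 42 tests. DESeq2 1.42.0, the replicate block, no TMM, no filter, pairwise fits, single libraries left out and libraries labelled 8 weeks alone were alternatives. The edgeR fit alone was tested on simulated counts, for G-NHX9 against Empty. Levels between genes were compared per kilobase of exon. Transcripts and promoters were aligned in pairs with Biopython 1.88, and motifs were found by matching letters. Replicate pairs within a group differed by more than counting noise (chi-square per degree of freedom at least 23.2 over 70 pairs).

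The members and gene lists were chosen with earlier results of these data known, and the mucosal ratios were added after the data were seen. Named genes were the 8 members, up to 4 examples of each list with the largest change among those that passed, any whose direction differed from the rest, and the 5 genes most like each member by Pearson's r. Groups share replicate numbers. Libraries of the same number deviated together, with every pair's r over 0.1, in 5 of 13 comparisons (G-NHX9, G-NHX9-midi-21FGAA and G-NHX9-DDNA against Empty, and G-NHX9-21FGAA and G-NHX9-DDNA against G-NHX9), and there the blocked value is given where it changed a call. The pairing comes from the data, since no label says what a number marks. The methods of the study speak of triplicates, and 5 libraries per group were used.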

Additional observations from a re-analysis of the deposited data

Results flagged for a closer look

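Of 56 sets of 5 libraries (8 genes in 7 groups), 1 held a library far from its fellows, where about 2.8 are expected by chance at 1 in 20. It was Tpsb2 in G-NHX9, at 29.1 CPM in replicate 2, while the nearest library stood at 35.5 CPM and the highest at 37.7 CPM. All 5 libraries lay below every Empty library.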

How the results depend on the processing

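Under the alternatives, 1683 of 1765 gene values kept their direction and their side of the threshold, 42 lost and 15 gained a call, and 25 turned direction, with edgeR adjusted p of at least 0.771. Of 323 counts, 291 stayed within 1.5 times. The cause of each change was not tested. With the replicate block, 8 members were called with G-NHX9, 8 with 8FA (Mcpt1 -1.31, edgeR adjusted p = 0.0262), 4 with 21FGAA (Tpsab1 -0.81, adjusted p = 0.0378), 3 with midi-21FGAA, 2 with DDNA, and 3 for midi against 8FA, where a fit to the 2 groups alone called 2 and DESeq2 3. Among libraries labelled 8 weeks alone, 2 were called with midi-21FGAA and 1 with DDNA, and for 8FA against G-NHX9 the count was 0 (edgeR, Mcpt2 0.90, adjusted p = 0.0516). With 0.05 CPM added, 9 mucosal ratios passed. Without TMM the median of all genes shifted by up to 0.19.

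With 1 library left out, called members ran from 6 to 7 (G-NHX9), 6 to 7 (8FA), 2 to 4 (midi-21FGAA), 1 to 2 (DDNA), 2 to 4 (midi against G-NHX9) and 1 to 3 (midi against 8FA). Ratios to Mcpt8 that passed ran from 0 to 6 (G-NHX9), 0 to 5 (8FA), 0 to 6 (midi), 0 to 2 (21FGAA), 0 to 1 (midi-21FGAA) and 0 to 1 (DDNA), and mucosal ratios from 0 to 35. The log2 values that turned ran from -0.16 to 0.31 for Mcpt4 with 21FGAA and -0.26 to 0.12 with midi-21FGAA, and for 8FA against G-NHX9 from -0.68 to 0.0017 (Mcpt1), -0.27 to 0.14 (Mcpt8) and -0.41 to 0.035 (Tpsb2). For midi against 8FA they ran from -0.091 to 0.10 (Cpa3) and -0.51 to 0.16 (Tpsab1). Without TMM, Mcpt4 with midi-21FGAA was 0.061 and Cpa3 for midi against 8FA 0.062. Among libraries labelled 8 weeks, Mcpt4 (-0.15) and Cma1 (-0.072) with 21FGAA, Cma1 with DDNA (-0.093) and Mcpt8 for 8FA against G-NHX9 (0.14) turned.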
